A study of Mus musculus with 2 samples.

Results

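The cells described here are the MC38 cells with the most transcripts of G2 and mitosis. They were chosen by their share of unique molecular identifiers (UMIs, 1 per captured transcript) in 8 genes, Cenpa, Cenpe, Cdc20, Ccnb1, Hmmr, Tpx2, Dlgap5 and Cdkn3, as the top 15% of the pooled cells of both libraries. Barcodes entered as kept cells with 5000 or more UMIs, 500 or more detected genes and a mitochondrial share of no more than 10%. Of 5554 kept cells, 833 were members, 434 of them in the aPD-1 library and 399 in the IgG library, and the other 4721 cells are called the other kept cells. Membership was read from the same cells whose genes are described below, so the values of the 8 selecting genes describe the choice and are not a finding.

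A dividing cell copies its DNA in S phase, prepares in G2 and separates its chromosomes in mitosis. Cyclin B with its kinase starts mitosis, the spindle and its motor proteins move the chromosomes, and the anaphase promoting complex, activated by Cdc20, ends it by marking securin and the cyclins for destruction. Transcripts of these genes accumulate late in the cycle under the MuvB, B-Myb and FoxM1 factors, and many of their promoters carry a CHR element (cell cycle genes homology region) downstream of CCAAT boxes.

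MC38 is a mouse colon carcinoma line, grown here as tumours in C57BL/6 albino mice. Tumour spheroids were embedded in collagen in a microfluidic chip and kept ex vivo for 6 days with aPD-1, clone RMP1-14, which blocks the inhibitory receptor PD-1 of T cells, or with an IgG control, clone 2A3, each at 10 µg/mL. Spheroids were digested with collagenase and trypsin, tumour cells were sorted by flow cytometry and a 10x Chromium 3′ library was made from each treatment. The sources used here do not name the sort markers.

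There was 1 library per treatment, so no test between treatments was possible. Treatment cannot be told apart from sorting, loading or cell calling, and cells are not replicates. The aPD-1 library held 68385785 UMIs and the IgG library 52720076. Kept cells numbered 3356 in the aPD-1 library and 2198 in the IgG library, and 8 barcodes were kept in both. Members had a median of 18102 UMIs and 3789 genes in the aPD-1 library, and the other kept cells 16316 UMIs and 3393 genes. In the IgG library members had a median of 22503 UMIs and 4320 genes, and the other kept cells 20392 UMIs and 3988 genes. Members were thus deeper than the other kept cells by a ratio of 1.11 in the aPD-1 library and 1.10 in the IgG library. After thinning every cell to 5000 UMIs, members still had a median of 1767 genes against 1655 in the aPD-1 library, and 1808 against 1750 in the IgG library. Levels below are UMIs summed over the cells of a class in a library and scaled to CPM, the UMIs of a gene per 1e6 UMIs of that class. All intervals are 95% intervals and cover counting error only.

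Promoter windows were searched for the letters of the CCAAT and CHR motifs named above. They span 300 bases, 250 before and 50 after the start, and were read from RefSeq on build GRCm38.p6. Those of 5 genes that the results turn on are printed 5′ to 3′ on the gene's strand, and capitals mark CCAAT and the CHR letters TTTGAA or, on either strand, their reverse complements.
Cdc20, chr4:118437294-118437593, minus strand: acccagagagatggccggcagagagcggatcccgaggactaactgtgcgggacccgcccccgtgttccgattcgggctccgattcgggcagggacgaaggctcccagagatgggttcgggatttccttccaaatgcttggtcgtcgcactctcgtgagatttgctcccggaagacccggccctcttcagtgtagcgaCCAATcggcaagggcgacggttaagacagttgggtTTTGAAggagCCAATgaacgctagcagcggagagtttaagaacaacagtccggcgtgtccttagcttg
Plk1, chr7:122159185-122159484, plus strand: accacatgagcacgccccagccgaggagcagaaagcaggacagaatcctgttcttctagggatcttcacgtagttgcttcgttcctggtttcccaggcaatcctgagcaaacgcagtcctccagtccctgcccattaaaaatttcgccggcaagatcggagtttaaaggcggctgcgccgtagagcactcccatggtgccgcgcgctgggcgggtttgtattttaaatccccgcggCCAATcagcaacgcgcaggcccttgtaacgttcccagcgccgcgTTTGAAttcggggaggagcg
Aurka, chr2:172370521-172370820, minus strand: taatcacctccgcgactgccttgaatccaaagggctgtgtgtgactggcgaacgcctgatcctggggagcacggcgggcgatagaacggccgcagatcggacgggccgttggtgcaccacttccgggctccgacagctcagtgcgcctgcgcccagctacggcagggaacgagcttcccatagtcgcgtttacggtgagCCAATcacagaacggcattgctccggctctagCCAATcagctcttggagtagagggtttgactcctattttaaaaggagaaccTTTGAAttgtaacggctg
Cenpf, chr1:189688037-189688336, minus strand: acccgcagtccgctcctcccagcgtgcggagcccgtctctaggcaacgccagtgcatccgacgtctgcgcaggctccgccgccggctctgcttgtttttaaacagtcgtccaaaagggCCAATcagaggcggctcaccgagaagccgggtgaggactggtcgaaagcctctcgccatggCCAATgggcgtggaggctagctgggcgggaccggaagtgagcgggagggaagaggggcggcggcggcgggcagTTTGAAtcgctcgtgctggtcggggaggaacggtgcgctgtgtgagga
Ccnb1, chr13:100786437-100786736, minus strand: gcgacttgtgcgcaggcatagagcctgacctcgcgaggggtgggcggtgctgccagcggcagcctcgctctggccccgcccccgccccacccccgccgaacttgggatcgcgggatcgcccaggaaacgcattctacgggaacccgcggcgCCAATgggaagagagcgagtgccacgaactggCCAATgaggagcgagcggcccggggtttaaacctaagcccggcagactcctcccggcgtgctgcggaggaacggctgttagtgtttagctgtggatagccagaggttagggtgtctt
The first 4 hold both motifs, with 2 CCAAT boxes in Cdc20, Aurka and Cenpf and 1 in Plk1, and Ccnb1 holds 2 CCAAT boxes and no TTTGAA in this window. In Cdc20 the CHR letters begin 18 bases before the start, between CCAAT boxes that begin 53 and 8 bases before it. In Cenpf they begin at base 3 after the start, with CCAAT boxes beginning 132 and 71 bases before it. In Plk1 and Aurka they begin at bases 31 and 33 after the start, downstream of every CCAAT box of the window. The motifs were searched on both strands, and matches that share bases were each counted, which happens in none of the 5 windows printed.

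Among the 8 selecting genes, 6 had a window, and 4 of the 6 held TTTGAA and all 6 a CCAAT box. Of the 81 further genes higher in members (described below), 68 matched the table with 78 windows. TTTGAA was found in 64.1% of these windows, against 11.4% of 6869 windows of tested genes not called higher and 17.9% of all 32851 windows in the table. CCAAT was found in 70.5% of the windows of the higher genes, against 37.6% of those of the genes not called higher and 37.4% of all windows. Both motifs stood together in 51.3% of the windows of the higher genes, against 4.48% of those of the genes not called higher and 6.95% of all. A match is a description of these letters and not of a bound site. Some genes share a window or have more than 1, so windows are not independent.

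Members made up 12.9% of kept cells in the aPD-1 library (434 of 3356, exact Clopper-Pearson interval 11.8 to 14.1) and 18.2% in the IgG library (399 of 2198, interval 16.6 to 19.8). The aPD-1 share was 5.22 percentage points below the IgG share (interval 3.24 to 7.24), a ratio of 0.712. With the top 10% of cells the shares were 8.25% in the aPD-1 library and 12.7% in the IgG library, and with the top 20% they were 18.0% in the aPD-1 library and 23.1% in the IgG library. The difference kept its sign under all 9 alternatives run on it, from 3.72 to 5.495 points lower in the aPD-1 library. The cutoff lay at 0.0841% of a cell's UMIs. The 50 members nearest to it had 0.0841 to 0.0881%, and the 50 cells just outside had 0.0800 to 0.0841%, so no gap separated members from the other kept cells.

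The libraries differed in the upper range of the score more than at its middle. The median share was 0.0143% in the aPD-1 library and 0.0130% in the IgG library. The 95th percentile was 0.137% in the aPD-1 library and 0.1655% in the IgG library. Cells without a UMI of the 8 genes made up 29.3% of the aPD-1 library and 26.6% of the IgG library. A median member carried 23 UMIs of the 8 genes in the aPD-1 library (range 5 to 106) and 31 in the IgG library (range 5 to 115). The other kept cells had a median of 2 such UMIs in the aPD-1 library and 1 in the IgG library. Median members had 7 of the 8 genes detected in each library, and median other kept cells 1. These counts of UMIs and of detected genes are not scaled to depth, which was greater in the IgG library. As a share of a cell's UMIs, the median of members was 0.125% in the aPD-1 library and 0.130% in the IgG library.

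**Figure D1:**
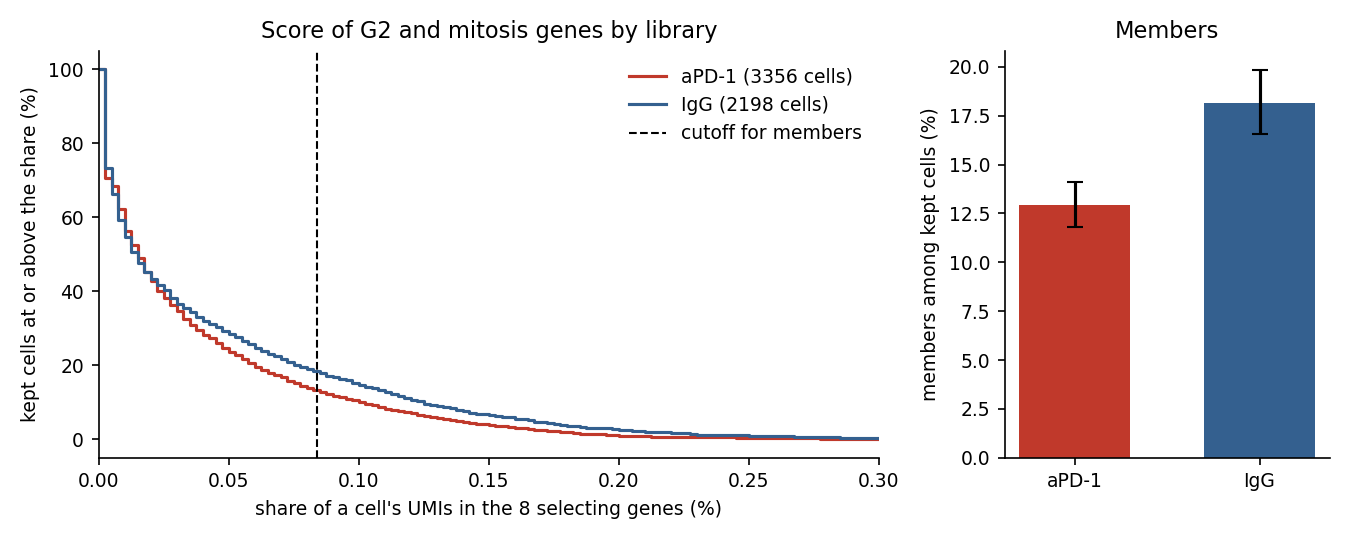
Left, the percentage of kept cells at or above each share of UMIs in the 8 selecting genes, with the cutoff at 0.0841% as a dashed line. Right, the percentage of kept cells that were members, with exact 95% intervals for counting error, 12.9% in the aPD-1 library and 18.2% in the IgG library.

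Over all kept cells the 8 genes summed to 368.5 CPM in the aPD-1 library and 439.7 CPM in the IgG library, a ratio of 0.838 (interval 0.823 to 0.854). Members held 50.2% of these UMIs in the aPD-1 library and 63.3% in the IgG library. The genes did not share 1 ratio. Cenpa, the histone H3 variant of centromeres, had 106.6 CPM over all kept cells of the aPD-1 library and 106.1 CPM in the IgG library. Cdc20 had 41.0 CPM in the aPD-1 library and 63.1 CPM in the IgG library, a ratio of 0.650 (interval 0.616 to 0.685). The libraries lay closer in the other G2 and mitosis genes, those of the lists described below without the 8 selecting genes. These 113 genes summed over all kept cells to 4856 CPM in the aPD-1 library and 4984 CPM in the IgG library.

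The label was read against its own markers first. Cdc20, the activator of the anaphase promoting complex, had 185 CPM in members of the aPD-1 library against 17.8 CPM in its other kept cells, and 223 against 23.7 CPM in the IgG library. Ccnb1, cyclin B1, had 111 against 16.4 CPM in the aPD-1 library and 116 against 17.4 CPM in the IgG library. Tpx2, which nucleates spindle microtubules and activates Aurora A, had 233 against 45.6 CPM in the aPD-1 library and 242 against 37.6 CPM in the IgG library. All 3 were far above the other kept cells in both libraries, as the choice of cells requires. Cenpe, the kinetochore motor kinesin, had 126 against 16.3 CPM in the aPD-1 library and 138 against 14.4 CPM in the IgG library. Hmmr, a spindle protein that also binds hyaluronan, had 123 against 15.4 CPM in the aPD-1 library and 125 against 15.2 CPM in the IgG library. Dlgap5, which stabilises kinetochore fibres, had 83.5 against 14.3 CPM in the aPD-1 library and 107 against 15.1 CPM in the IgG library. The smallest ratios among the 8 were those of Cdkn3, a phosphatase of cyclin dependent kinases, at 5.06 in the aPD-1 library and 4.71 in the IgG library.

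The label of mitosis matched genes that the choice did not use. A gene with a mean of 10 CPM or more was called where members and the other kept cells differed by 2-fold or more, with the interval beyond 1.5-fold, in the same direction in both libraries. The mean is over members and the other kept cells, so a gene under 10 CPM in 1 class entered only through the other class. Such a gene could be called only in the direction of the class that let it in. Outside the 8 selecting genes 81 of 6778 genes were higher (1.2% called) and 4 were lower (0.059% called). In 1 library taken alone, 83 genes were higher in the aPD-1 library and 102 in the IgG library, and 15 were lower in the aPD-1 library and 13 in the IgG library. None was called in opposite directions by the 2 libraries. Of the 81 genes, 51 stood in 1 of 6 lists of G2 and mitosis genes, 4 in a list of chromatin proteins and tubulins, and 26 in no list. The median log2 ratio over all 6778 genes was 0.12 in the aPD-1 library and 0.06 in the IgG library, and values of lists are read beside these medians. At shares of 1.2% and 0.059%, hardly any call was to be had from a list of the sizes used here. A list with 0 calls is therefore not a finding about its genes.

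**Figure D2:**
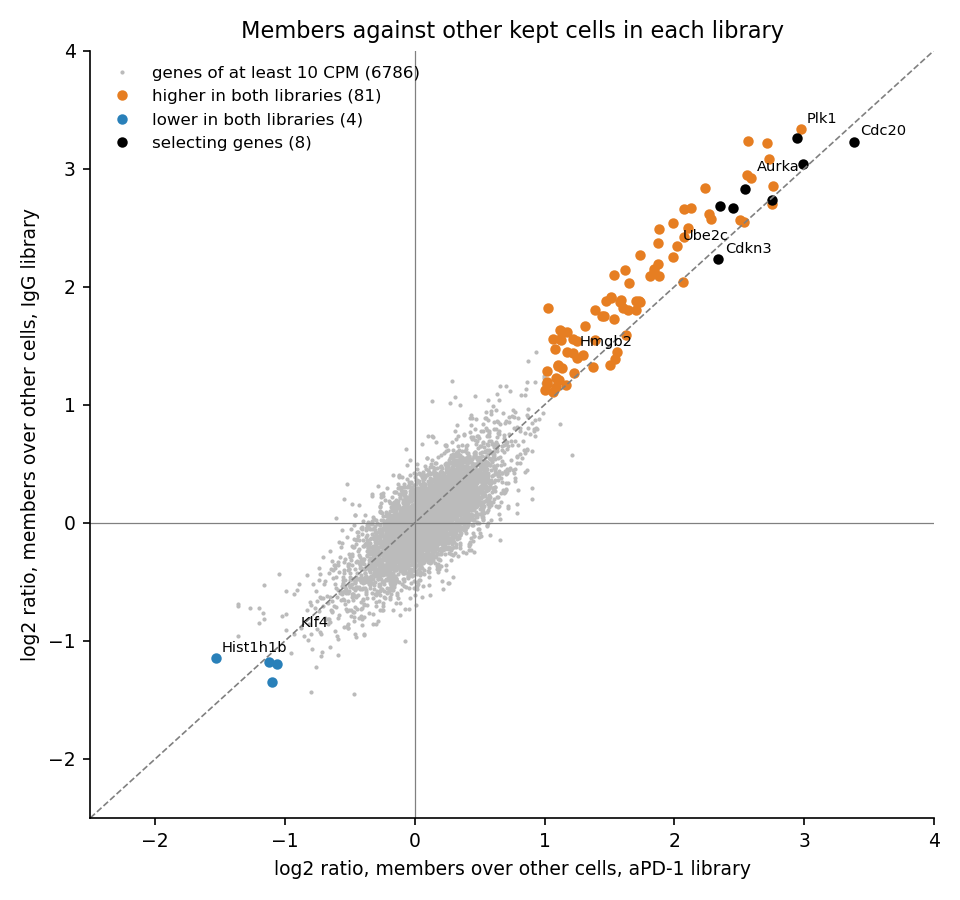
Each point is a gene of at least 10 CPM, placed by its log2 ratio of members over other kept cells in the aPD-1 library (x axis) and in the IgG library (y axis). The 81 higher genes run along the dashed line of equal ratios, mostly above it, and the 4 lower genes lie below -1 on both axes.

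Spindle and motor genes showed the greatest shift of any list. Of 20 tested genes 17 were higher, 0 lower and 3 neither, with a median log2 ratio of 2.07 in the aPD-1 library and 2.52 in the IgG library. Only 8 genes of this list, outside the selecting genes, had a mean of 10 CPM or more over the other kept cells of both libraries. The rest of the 20 passed the floor in at least 1 library only through members, so the count and the median lean upwards. Plk1, the kinase that drives mitotic entry and centrosome maturation, had 56.3 CPM in members of the aPD-1 library against 7.16 CPM in its other kept cells (7.86-fold, interval 6.86 to 9.02). In the IgG library Plk1 had 64.3 against 6.36 CPM (10.1-fold, interval 8.72 to 11.7). Its ratio was the greatest of all genes outside the selecting set when ranked by the weaker library. Aurka, the centrosomal Aurora A kinase, had 72.2 against 12.02 CPM in the aPD-1 library and 71.6 against 9.44 CPM in the IgG library. Kif23, a kinesin of the central spindle, had 48.9 against 7.22 CPM in the aPD-1 library and 52.2 against 7.22 CPM in the IgG library. Kif2c, a kinesin that takes microtubules apart at centromeres, had 21.3 against 3.21 CPM in the aPD-1 library and 24.4 against 2.88 CPM in the IgG library. The motors Kif20a, Kif22, Kifc1 and Kif20b were between 4.20-fold and 5.81-fold higher in the aPD-1 library and between 5.36-fold and 7.16-fold higher in the IgG library.

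Kinetochore and centromere genes were higher in 14 of 22 tested cases and lower in none, and the median log2 ratio was 1.10 in the aPD-1 library and 1.51 in the IgG library. Cenpf, a large kinetochore protein, had 81.6 against 16.9 CPM in the aPD-1 library and 81.1 against 13.2 CPM in the IgG library. Ndc80, the microtubule anchor of the kinetochore, had 23.4 against 5.57 CPM in the aPD-1 library and 29.2 against 7.09 CPM in the IgG library. Bub1b, a kinase family member of the spindle checkpoint, had 37.8 against 10.2 CPM in the aPD-1 library and 48.6 against 11.4 CPM in the IgG library. All 3 passed the fold rule in each library. Cenph, an inner kinetochore protein, had 28.3 against 19.2 CPM in the aPD-1 library and 36.0 against 20.8 CPM in the IgG library, short of the rule.

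Genes of the chromosomal passenger complex and condensin were higher in 8 of 16 tested cases and lower in none, with a median log2 ratio of 1.04 in the aPD-1 library and 1.20 in the IgG library. Birc5 (survivin), a subunit of the passenger complex, had 248 against 85.3 CPM in the aPD-1 library and 273 against 63.7 CPM in the IgG library. Cdca8 (borealin), another subunit, had 180 against 50.2 CPM in the aPD-1 library and 194 against 43.7 CPM in the IgG library. Aurkb, the kinase of the same complex, stayed under the rule at 32.7 against 24.3 CPM in the aPD-1 library and 24.0 against 18.9 CPM in the IgG library. Ncapd2, a condensin subunit, was 2.21-fold higher in the aPD-1 library and 3.06-fold higher in the IgG library. Mki67, which coats mitotic chromosomes, had 82.0 against 23.3 CPM in the aPD-1 library and 78.6 against 18.4 CPM in the IgG library.

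Of 13 tested cyclin, kinase and mitotic entry genes 6 were higher and none lower, with a median log2 ratio of 0.88 in the aPD-1 library and 1.37 in the IgG library. Ccna2, cyclin A2, had 127 against 34.5 CPM in the aPD-1 library and 131 against 28.8 CPM in the IgG library. Ccnb2, cyclin B2, had 133 against 43.0 CPM in the aPD-1 library and 187 against 61.9 CPM in the IgG library, about the same ratio in both. Cdc25c, the phosphatase that activates the cyclin B kinase, was 6.75-fold higher in the aPD-1 library and 6.50-fold higher in the IgG library. Pkmyt1, a kinase that holds the cyclin B kinase inactive, had 16.9 against 12.4 CPM in the aPD-1 library and 22.6 against 12.2 CPM in the IgG library, short of the rule. Mybl2 (B-Myb) was also short of it, at 56.7 against 45.6 CPM in the aPD-1 library and 44.6 against 27.4 CPM in the IgG library.

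The anaphase promoting complex and mitotic exit list behaved otherwise. Of its 12 tested genes 1 was higher and none lower, and the median log2 ratio was 0.35 in the aPD-1 library and 0.24 in the IgG library. The gene called was Ube2c, the ubiquitin conjugating enzyme of the complex, with 374 against 92.1 CPM in the aPD-1 library and 344 against 67.6 CPM in the IgG library. Ube2s, which extends the ubiquitin chains, had 802 against 405 CPM in the aPD-1 library (1.98-fold) and 745 against 328 CPM in the IgG library (2.27-fold), so the aPD-1 library kept it under the rule. Cdc16, a subunit of the complex, had 32.1 against 30.2 CPM in the aPD-1 library and 41.3 against 35.6 CPM in the IgG library. Pttg1 (securin), a target of the complex, had 67.7 against 54.7 CPM in the aPD-1 library and 81.9 against 64.9 CPM in the IgG library.

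Cytokinesis genes were higher in 5 of 8 tested cases and lower in none, with a median log2 ratio of 1.26 in the aPD-1 library and 1.68 in the IgG library. Racgap1, of the central spindle, had 107 against 29.9 CPM in the aPD-1 library and 130 against 29.8 CPM in the IgG library. Cep55, which marks the midbody, had 21.4 against 5.80 CPM in the aPD-1 library and 22.7 against 4.04 CPM in the IgG library. Anln, an actin binding protein of the cleavage furrow, had 48.8 against 18.7 CPM in the aPD-1 library and 58.0 against 16.6 CPM in the IgG library. Rhoa, the GTPase that contracts the furrow and is used throughout the cycle, had 341 against 310 CPM in the aPD-1 library and 387 against 378 CPM in the IgG library.

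Over the 6 lists without the selecting genes, 51 of 91 tested genes were higher, 0 lower and 40 neither. Over the other kept cells of both libraries, 68 genes of these lists had a mean of 10 CPM or more. Part of the 91 thus entered only through members and could not be called lower. Among the 20 higher genes with the greatest ratios, 5 were in no list. Knstrn, a kinetochore partner of the spindle, had 111 against 27.9 CPM in the aPD-1 library and 108 against 22.6 CPM in the IgG library. Psrc1, a microtubule binding protein, had 34.1 against 6.01 CPM in the aPD-1 library and 32.4 against 5.48 CPM in the IgG library. The others were Prr11, Sapcd2 and Depdc1a, which were between 5.88-fold and 6.58-fold higher in the aPD-1 library and between 7.70-fold and 9.40-fold higher in the IgG library.

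Shares of cells with a UMI are given after thinning each cell to 5000 UMIs, which left out no cell. Plk1 was detected in 19.8% of members against 2.16% of the other kept cells in the aPD-1 library, and in 27.1% against 2.00% in the IgG library. Before thinning its shares were 54.4% against 9.89% in the aPD-1 library and 63.2% against 9.17% in the IgG library. Ccna2 was detected in 42.4% against 10.95% in the aPD-1 library and 43.6% against 9.17% in the IgG library at the thinned depth, and in 79.3% against 30.4% in the aPD-1 library and 84.96% against 26.3% in the IgG library before it. The sorted cells hold no class known to lack these genes, so no background share could be read from one. The deposited aPD-1 barcodes of under 500 UMIs, which hold mostly free RNA, carried the 8 selecting genes at 411.7 CPM, against 368.5 CPM in the kept aPD-1 cells and 1331 CPM in aPD-1 members.

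Genes of S phase gave no call, but most lay above the median of all genes. Of 47 tested DNA replication genes 0 were higher and 0 lower, against 1.2% and 0.059% of all tested genes. At those shares hardly any call was to be had from 47 genes. The median log2 ratio was 0.24 in the aPD-1 library and 0.56 in the IgG library. Above the median of all genes were 30 of the 47 in the aPD-1 library and 42 in the IgG library. Hells, a chromatin remodeller of replicating DNA, had 141 against 90.9 CPM in the aPD-1 library and 182 against 99.9 CPM in the IgG library. Tk1, thymidine kinase, had 79.9 against 51.8 CPM in the aPD-1 library and 81.5 against 46.9 CPM in the IgG library. Ung, a uracil DNA glycosylase, lay the other way at 12.6 against 32.5 CPM in the aPD-1 library and 16.3 against 26.7 CPM in the IgG library. By these values members were not empty of S phase transcripts. Of members, 12.7% in the aPD-1 library and 21.6% in the IgG library were also among the top 15% of cells by the S phase list, against 14.8% of the other kept cells in the aPD-1 library and 14.4% in the IgG library. The 141 shared cells were 16.9% of members and 16.9% of the S phase cells, which number the same.

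Replication dependent histones, which are transcribed with DNA synthesis, pointed downwards. Of 7 tested genes 1 was lower and 6 neither, with a median log2 ratio of -0.70 in the aPD-1 library and -0.59 in the IgG library. Hist1h1b, a linker histone, had 14.3 against 41.4 CPM in the aPD-1 library (ratio 0.345, interval 0.285 to 0.414) and 9.09 against 20.1 CPM in the IgG library (ratio 0.452, interval 0.359 to 0.563). The sign depended on how members were chosen. With the other G2 and mitosis genes in the score, the list had a median of 1.02 in the aPD-1 library and 0.90 in the IgG library, and Hist1h1b was 1.02 higher on the log2 scale in the weaker library. Histone genes are near-identical and can share reads, and their mature transcripts lack the poly(A) tail that the 3′ chemistry captures.

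Among 22 chromatin proteins and tubulins of dividing cells 4 were higher and 0 lower, with medians of 0.59 in the aPD-1 library and 0.67 in the IgG library. Hmgb2, a chromatin protein, had 1702 against 731 CPM in the aPD-1 library and 2038 against 751 CPM in the IgG library. Lmnb1, the nuclear lamin B1, had 97.4 against 37.2 CPM in the aPD-1 library and 131 against 44.7 CPM in the IgG library. The other 2 were Hmgb3 and Tubb4b, 2.12-fold and 2.09-fold higher in the aPD-1 library and 2.34-fold and 2.16-fold higher in the IgG library.

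Along the score itself, cells were split into 9 bins numbered from 0: bin 0 with no UMI of the 8 genes, then 5 bins of other kept cells and 3 bins of members. The other G2 and mitosis genes summed to 2321 CPM in the lowest and 10120 CPM in the highest bin of the aPD-1 library, and to 2482 and 10583 CPM in those of the IgG library. They increased at every step in both libraries. The S phase list had its maximum before the cutoff, in bin 4, at 3070 CPM in the aPD-1 library and 3394 CPM in the IgG library, and stood at 2581 CPM in the aPD-1 library and 2684 CPM in the IgG library in the highest bin of members. Replication histones had their maximum in bin 4 too, at 1214 CPM in the aPD-1 library and 1388 CPM in the IgG library, and were at 468.3 CPM in the aPD-1 library and 467.3 CPM in the IgG library in the highest bin. In the lower 2 bins of members the S phase list had 2618 and 2697 CPM in the aPD-1 library and 3072 and 3184 CPM in the IgG library, so in the IgG library it stayed near its 3105 CPM of bin 5. The histone bins hold for this score, and the histone medians changed sign with the other one, as given above.

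Members differed among themselves along the same axis. From the lowest to the highest bin of members, Plk1 went through 43.7, 55.4 and 74.6 CPM in the aPD-1 library and 43.5, 52.6 and 96.8 CPM in the IgG library. Ccna2 went through 111, 126 and 148 CPM in the aPD-1 library and 104, 118 and 172 CPM in the IgG library. Top2a, the topoisomerase that untangles chromosomes, named here after its values were seen, was lowest in the middle bin, with 126, 70.2 and 138 CPM in the aPD-1 library and 99.8, 91.2 and 129 CPM in the IgG library. Its maximum over all bins was in bin 4, at 215.5 CPM in the aPD-1 library and 192.4 CPM in the IgG library. Snai1 reached 72.5 CPM in the highest bin of the aPD-1 library and 84.5 CPM in that of the IgG library, and its lowest value was in bin 4, at 33.0 CPM in the aPD-1 library and 51.7 CPM in the IgG library. In bin 0 Snai1 stood at 60.4 CPM in the aPD-1 library and 75.2 CPM in the IgG library, so its course over the bins was U-shaped.

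**Figure D3:**
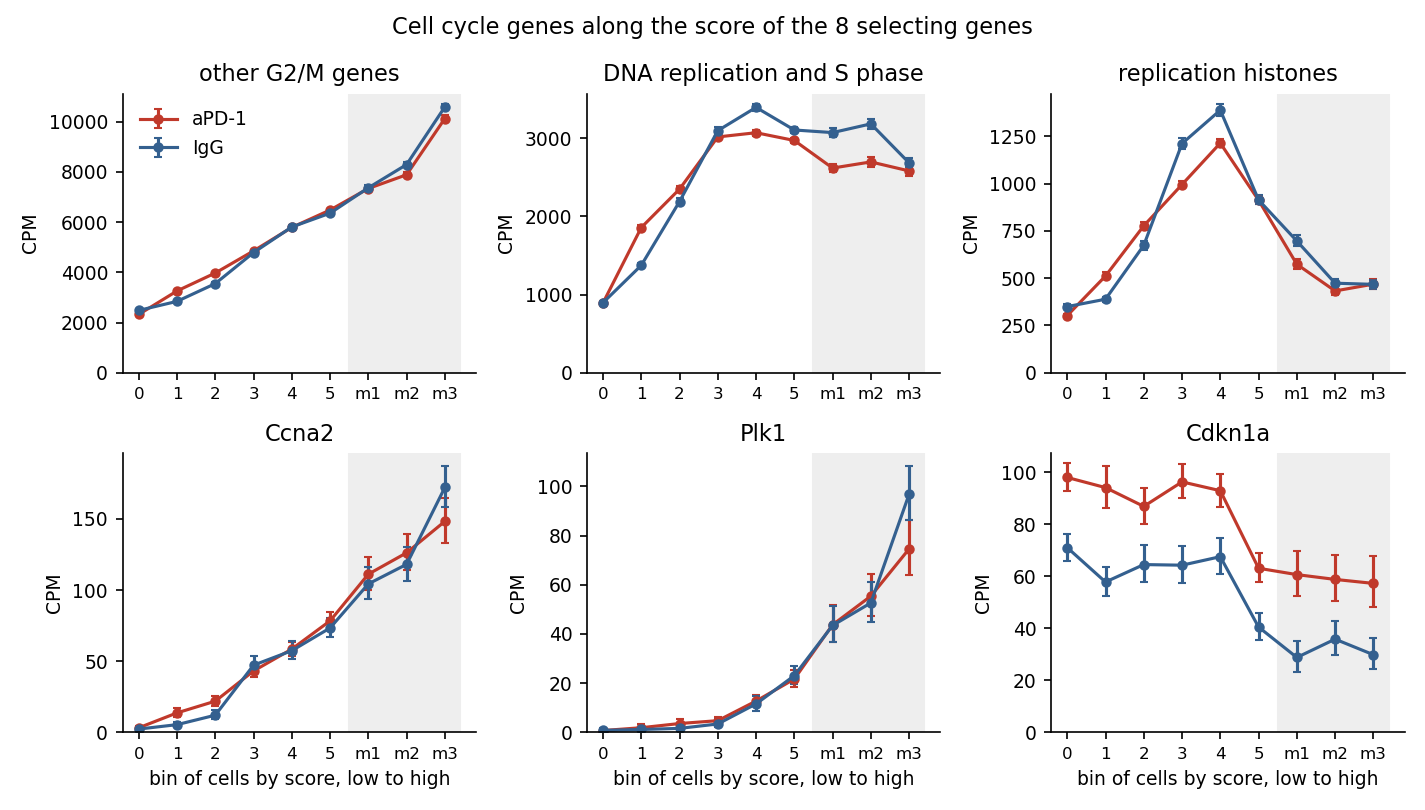
Summed CPM of 3 gene sets and of Ccna2, Plk1 and Cdkn1a in 9 bins of cells by the share of UMIs in the 8 selecting genes, from 0 (no such UMI) to m3 (highest members), with the members shaded and 95% Poisson intervals. The other G2 and mitosis genes climb at every step, and the S phase genes and replication histones have their maxima at bin 4, before the members.

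Only 4 genes were lower in members of both libraries. Besides Hist1h1b they were Kdm7a and Kdm5b, which are histone demethylases, and Pgpep1, a peptidase. Kdm7a had 23.1 against 50.4 CPM in the aPD-1 library and 19.1 against 43.3 CPM in the IgG library. Kdm5b had 6.79 against 14.6 CPM in the aPD-1 library and 8.17 against 20.8 CPM in the IgG library. Pgpep1 had 7.03 against 14.6 CPM in the aPD-1 library and 7.25 against 16.7 CPM in the IgG library.

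The list of G1 cyclins, inhibitors of cyclin dependent kinases and p53 targets had 0 calls among 20 tested genes, with medians of -0.03 in the aPD-1 library and -0.08 in the IgG library, and its sign in the aPD-1 library changed under 3 of 16 settings. Cdkn1a (p21), which arrests the cycle, had 59.0 against 89.5 CPM in the aPD-1 library and 31.5 against 61.3 CPM in the IgG library. Mxd4, a repressor that opposes Myc, had 16.7 against 29.2 CPM in the aPD-1 library and 17.2 against 46.3 CPM in the IgG library. Ccnd1, the G1 cyclin D1, had 316 against 253 CPM in the aPD-1 library and 292 against 222 CPM in the IgG library. None of these met the rule in both libraries.

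Immediate early genes, which respond within minutes to stimulation or stress, had 0 calls among 22 and medians of -0.12 in the aPD-1 library and -0.18 in the IgG library. Klf4, in that list a factor that restrains proliferation in gut epithelium, had 185 against 353 CPM in the aPD-1 library (ratio 0.525) and 197 against 377 CPM in the IgG library (ratio 0.522). In cells without any UMI of the 8 genes Klf4 reached 565.4 CPM in the aPD-1 library and 519.6 CPM in the IgG library.

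Glycolysis and hypoxia genes also had 0 calls among 30, with medians of -0.15 in the aPD-1 library and -0.31 in the IgG library. Ndrg1, a gene induced by low oxygen, had 184 against 332 CPM in the aPD-1 library and 162 against 314 CPM in the IgG library. Vegfa, the vessel growth factor, had 42.4 against 60.6 CPM in the aPD-1 library and 40.7 against 64.3 CPM in the IgG library. Among members, 12.2% in the aPD-1 library and 10.5% in the IgG library were also in the top 15% of cells by the hypoxia list, against 12.4% of the other kept cells in the aPD-1 library and 20.9% in the IgG library. The gap between members and the other kept cells was thus seen in the IgG library, and its difference between libraries was not tested. Extracellular matrix genes had 0 calls among 23 and medians of -0.19 in the aPD-1 library and -0.39 in the IgG library, with Col3a1 at 143 against 193 CPM in the aPD-1 library and 185 against 323 CPM in the IgG library.

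Cholesterol synthesis genes had 0 calls among 22, but 21 lay above the median of all genes in the aPD-1 library and 20 in the IgG library. Their medians were 0.41 in the aPD-1 library and 0.22 in the IgG library. Sc5d, an enzyme late in sterol synthesis, had 45.4 against 26.7 CPM in the aPD-1 library and 58.0 against 42.4 CPM in the IgG library. Heat shock chaperones had 0 calls among 17 and medians of 0.35 in the aPD-1 library and 0.22 in the IgG library. Cytoplasmic ribosomal proteins had 0 calls among 40 and medians of -0.13 in the aPD-1 library and -0.09 in the IgG library, none of them above the median of all genes in either. Ribosomal protein genes took 35.2% of members' UMIs against 38.7% of those of the other kept cells in the aPD-1 library, and 33.0% against 34.8% in the IgG library.

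Interferon and antigen presentation genes, which T cells can raise in tumour cells, had no calls, where 1.2% of all tested genes were called higher and 0.059% lower. Most of each list lay above the median of all genes in the aPD-1 library and below it in the IgG library. MHC class I presentation had 0 calls among 19 and medians of 0.23 in the aPD-1 library and -0.03 in the IgG library. The interferon-gamma list had 0 calls among 22 and medians of 0.21 in the aPD-1 library and 0.01 in the IgG library. The type I interferon list had 0 calls among 25 and medians of 0.25 in the aPD-1 library and -0.02 in the IgG library. Above the median of all genes were 14 of 19 MHC class I genes, 16 of 22 interferon-gamma genes and 19 of 25 type I interferon genes in the aPD-1 library. In the IgG library they were 5 of 19, 9 of 22 and 6 of 25. In the IgG library the signs of these 3 medians changed with the settings. B2m, the light chain of MHC class I, had 1991 against 2159 CPM in the aPD-1 library and 2100.3 against 2791 CPM in the IgG library. Irf1, a transcription factor of interferon responses, had 158 against 103 CPM in the aPD-1 library and 161 against 116 CPM in the IgG library. Actin and adhesion genes had 0 calls among 21 and medians of 0.04 in the aPD-1 library and -0.04 in the IgG library, both of which changed sign under some settings.

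**Figure D4:**
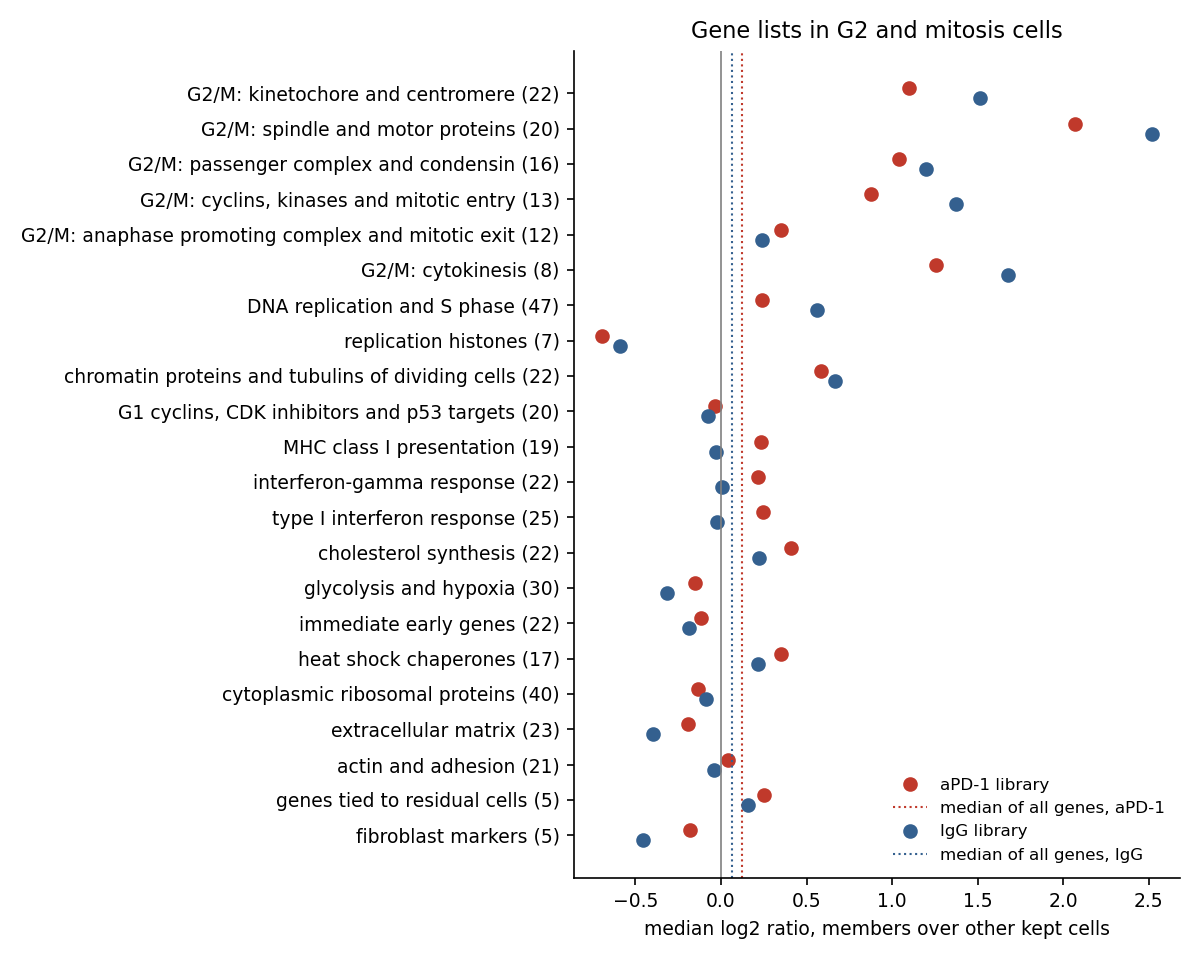
Median log2 ratio of members over other kept cells for each gene list, with the number of tested genes in parentheses, in the aPD-1 library and in the IgG library. Dotted lines mark the median of all 6778 genes, and 5 of the 6 G2 and mitosis lists stand to the right of every other list.

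The series concerns cells that remain after PD-1 blockade, and 5 genes tied to them were read whatever their values. Of these 5 none met the rule. Snai1, a repressor of epithelial genes, had 57.7 against 47.0 CPM in the aPD-1 library and 76.3 against 68.3 CPM in the IgG library. Ly6a (Sca-1), a surface antigen of stem and progenitor cells, had 44.4 against 63.3 CPM in the aPD-1 library and 47.0 against 85.3 CPM in the IgG library. Birc2, an inhibitor of apoptosis protein, had 41.9 against 29.1 CPM in the aPD-1 library and 46.4 against 41.1 CPM in the IgG library. Birc3, its relative, had 18.4 against 15.7 CPM in the aPD-1 library and 21.5 against 20.2 CPM in the IgG library. Cd274 (PD-L1), the ligand of PD-1, had 32.3 against 27.1 CPM in the aPD-1 library and 29.3 against 25.3 CPM in the IgG library. Ly6a was the only gene of the 5 with a lower value in members of both libraries.

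Macrophage, endothelial and T and NK markers were sparse in members, and fibroblast markers were not. No member had UMIs of at least 3 of 10 macrophage markers, against 3 of the other kept cells in the aPD-1 library and 8 in the IgG library. For 8 endothelial markers the numbers were 0 members in the aPD-1 library and 3 in the IgG library, against 4 of the other kept cells in the aPD-1 library and 21 in the IgG library. No kept cell reached 3 of 9 T and NK markers. At least 3 of 8 fibroblast markers were found in 191 aPD-1 members (44.0%) and 227 IgG members (56.9%), against 46.3% of the other kept cells in the aPD-1 library and 59.3% in the IgG library. The fibroblast markers summed to 535.7 CPM in members against 673.2 CPM in the other kept cells of the aPD-1 library, and to 705.6 against 1025 CPM in the IgG library, with 5 of them at 10 CPM or more in every class. Their part in the results was not tested. The 8 epithelial markers gave 2 UMIs in members of the aPD-1 library and 5 in those of the IgG library, so the name of tumour cells rests on the sort and not on epithelial transcripts.

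Between the 2 libraries, which stand for 1 sample of each treatment, members differed in few genes of at least 10 CPM. By the same fold rule 4 of 6995 genes were higher in aPD-1 members than in IgG members (0.0572% called) and 19 were lower (0.272% called). With ratios centred on the median gene 7 were higher and 18 lower. Over all tested genes the median log2 ratio of aPD-1 over IgG was -0.05 in members, and 97.2% of genes lay within 1.5-fold. In the other kept cells 6 of 6952 genes were higher in the aPD-1 library (0.0863% called) and 26 lower (0.374% called), with a median of -0.10. Of the genes called in members, 2 of 4 higher and 12 of 19 lower ones were also called in the other kept cells, where they make up 2 of 6 and 12 of 26.

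Il1rl1, Cfap58 and Prkg2 were among the 4 genes higher in aPD-1 members. Il1rl1, the receptor of interleukin-33, had 16.7 CPM in aPD-1 members and 3.47 CPM in IgG members (4.82-fold, interval 3.30 to 7.23). In the other kept cells Il1rl1 had 19.3 CPM in the aPD-1 library and 6.59 CPM in the IgG library. Il1rl1 thus met the rule inside and outside the members. Prkg2, a cGMP dependent kinase, had 35.4 CPM in aPD-1 members and 17.7 CPM in IgG members, at 2.00-fold, the limit of the rule. Cfap58, a cilium and flagellum protein, had 30.8 CPM in aPD-1 members and 14.3 CPM in IgG members. With the other G2 and mitosis genes in the score Il1rl1 stayed called, at a log2 ratio of 1.44, and Cfap58 and Prkg2 were not, at 0.79 and 0.64. Without kept cells that had 3 or more macrophage, endothelial or T and NK markers, Prkg2 fell just under the rule, at 0.9935. There Il1rl1 had 2.26 and Cfap58 1.09.

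Among the 19 lower genes, Hes1, a repressor induced by Notch, had 47.3 CPM in aPD-1 members and 175 CPM in IgG members (ratio 0.270, interval 0.241 to 0.301). In the other kept cells Hes1 had 36.9 CPM in the aPD-1 library and 124 CPM in the IgG library, a ratio of 0.298. Its UMIs were spread over 154 aPD-1 and 252 IgG members. Hspa1b, an inducible Hsp70 that shares near-identical sequence with Hspa1a, had 26.8 CPM in aPD-1 members and 76.1 CPM in IgG members. Ptn, the growth factor pleiotrophin, had 15.1 CPM in aPD-1 members and 37.7 CPM in IgG members, and Il33, the ligand of Il1rl1, had 6.56 CPM in aPD-1 members and 17.4 CPM in IgG members. Spib, Rorb, Dpt, Cilp and Gjb5 had ratios from 0.323 to 0.396.

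The 3 smallest ratios rested on a handful of cells. Ctla2a had 2 UMIs in aPD-1 members and 313 in IgG members (ratio 0.00732, interval 0.000883 to 0.0267). Igfbp3 had 2 UMIs in aPD-1 members and 280 in IgG members, and Igfbp7 3 UMIs in aPD-1 members and 228 in IgG members. In IgG members these UMIs came from 16, 12 and 14 cells, and 1 cell held 56.9% of those of Ctla2a, 35.4% of those of Igfbp3 and 41.2% of those of Igfbp7. Kept cells that had 3 or more macrophage, endothelial or T and NK markers included 0 aPD-1 members and 3 IgG members. Without such cells the log2 ratios were -2.62 for Ctla2a, -1.98 for Igfbp3 and -1.69 for Igfbp7, against -7.09, -6.93 and -6.05 with them. None of the 3 genes was then called, although each ratio stayed beyond 2-fold. On the few UMIs left, each gene lay under the floor of 10 CPM. The endothelial markers summed to 15.3 CPM in aPD-1 members and 49.2 CPM in IgG members.

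**Figure D5:**
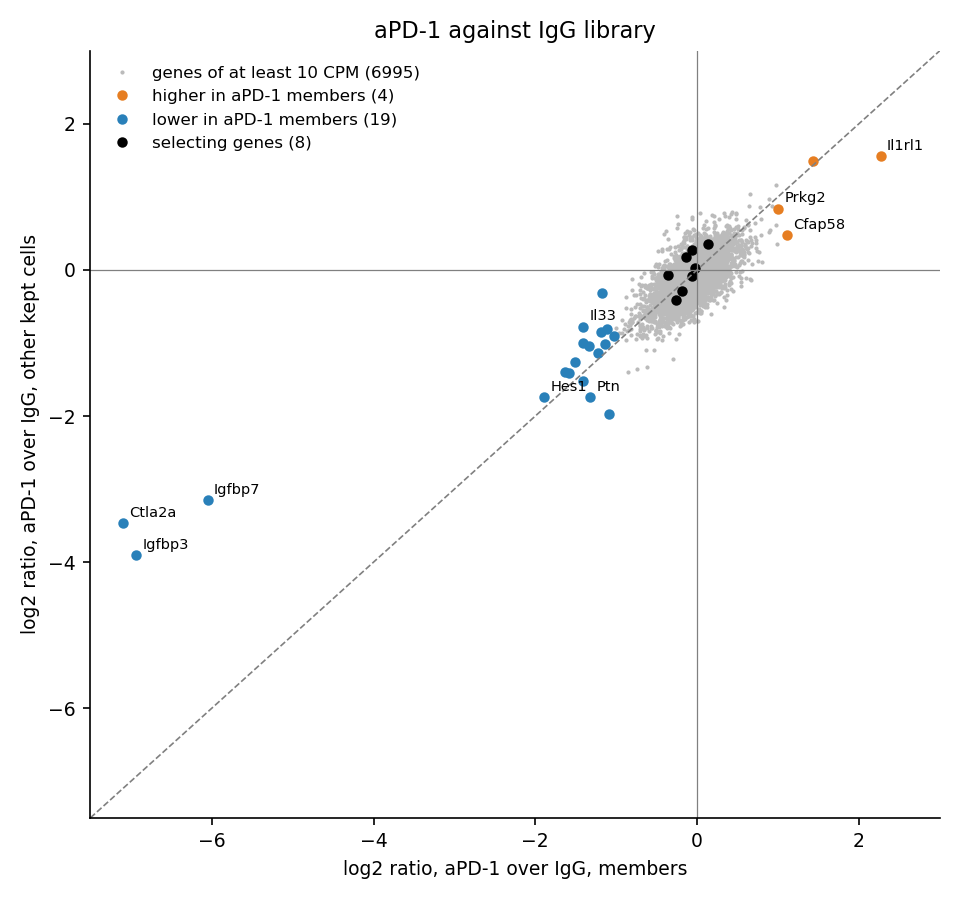
Each point is a gene of at least 10 CPM, placed by its log2 ratio of aPD-1 over IgG in members (x axis) and in the other kept cells (y axis). Most genes lie within 1.5-fold, the 4 higher genes sit at the right, and Ctla2a, Igfbp3 and Igfbp7 stand apart at the lower left.

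No gene of the 6 G2 and mitosis lists was called between aPD-1 and IgG members, where 0.0572% of all tested genes were called higher and 0.272% lower. At these rates hardly any call was to be had from lists of this size. Members of both libraries also passed the same cutoff on G2 and mitosis genes, so the lack of calls is not a finding about the lists. The median log2 ratio of the 99 tested genes of these lists was -0.12 in members, and 26 of the 99 were above 0, against 40.0% of all tested genes. In the other kept cells the sign was the opposite. There the median of 68 tested genes was 0.13, and 48 of the 68 were above 0, against 33.4% of all tested genes. The 2 medians cover different genes, as fewer reached 10 CPM in the other kept cells, 8 against 21 in the spindle list. The same cutoff also bounds both classes, so the change of sign is not a finding about either class. In members the spindle list had a median of -0.20, and Kif20a had 31.5 CPM in aPD-1 members and 48.0 CPM in IgG members, a ratio of 0.656. Kifc1, a minus end directed kinesin, had 21.8 CPM in aPD-1 members and 35.2 CPM in IgG members. Ccnb2 had a ratio of 0.712 in members and 0.695 in the other kept cells. Aurkb lay the other way, with 32.7 CPM in aPD-1 members and 24.0 CPM in IgG members.

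Of the remaining lists, heat shock chaperones had a median of -0.38 in members and -0.41 in the other kept cells, with Hspa1b the 1 gene called. Cholesterol synthesis had -0.32 in members and -0.48 in the other kept cells and 0 calls among 22 genes. Idi1, an enzyme of isoprenoid synthesis, had 64.9 CPM in aPD-1 members and 99.4 CPM in IgG members. DNA replication genes had a median of -0.19 in members and 0.10 in the other kept cells, with Mcm2, a helicase subunit, at 34.8 CPM in aPD-1 members and 47.3 CPM in IgG members. Type I interferon genes had 0.24 in members and -0.07 in the other kept cells, with 0 calls among 25. Ifit1, an antiviral RNA binding protein, had 93.2 CPM in aPD-1 members and 62.3 CPM in IgG members. Mx1, an antiviral GTPase, had 21.3 CPM in aPD-1 members and 13.4 CPM in IgG members. Cdkn1a had 59.0 CPM in aPD-1 members and 31.5 CPM in IgG members, a ratio of 1.88, below the fold of the rule. Whether members and the other kept cells differed in these ratios between libraries could not be tested with 1 library each.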

How the data were processed

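Counts of UMIs per gene and barcode were deposited by the authors as 2 matrices whose headers name Cell Ranger 3.0.2, with no normalization. Cell Ranger, Seurat 2.1.0 and the build mm10 are named in the submitters' processing notes, while no annotation release is given in the sources used here. Each matrix lists 28692 genes. The IgG matrix held 4351 barcodes and the aPD-1 matrix all 737280 possible barcodes, so the same filters were applied to both: 5000 UMIs, 500 genes and a mitochondrial share of 10%. The mitochondrial limit removed 81 aPD-1 and 89 IgG barcodes.

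UMIs were summed per library and class with Python 3.11.15, numpy 2.4.6, scipy 1.17.1 and pandas 2.3.3. Ratios carry no pseudocount and an exact conditional binomial 95% interval, shares an exact Clopper-Pearson interval. Scrublet in scanpy 1.11.5 marked 9 of 5554 cells (0.162%), so few that its calls were not used, and doublets were left in. Of members, 6.22% in the aPD-1 library and 7.52% in the IgG library lay above their library's 95th UMI percentile, against 4.83% of the other aPD-1 cells and 4.45% of the other IgG cells.

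The members, the lists and the rules were chosen with earlier results of these data known. Named genes are the 8 selecting genes, the up to 20 highest and 10 lowest called genes by the weaker library, up to 12 called in each direction between libraries, up to 4 extreme genes of at least 10 CPM per list, and Snai1, Ly6a, Birc2, Birc3 and Cd274. Ribosomal, mitochondrial, haemoglobin and unnamed gene models were left out. Of 604 listed symbols 603 matched. A called gene that is withheld is not reported here. The steps were tested on simulated counts. Promoter windows came from RefSeq (GRCm38.p6) by symbol or unambiguous synonym; Tpx2 and Dlgap5 had none. Alternatives changed the share of cells taken, the genes in the score, thinning, filters on cells and genes, the pseudocount and the scaling.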

Additional observations from a re-analysis of the deposited data

Results flagged for a closer look

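The 8 selecting genes were also present outside the kept cells. In aPD-1 barcodes of under 500 UMIs they summed to 411.7 CPM (interval 394.0 to 430.1, over 519382 barcodes and 4925490 UMIs), above the limit of 0.609 CPM that a count of 0 allows. In barcodes of at least 5000 UMIs with over 10% mitochondrial UMIs they summed to 473.6 CPM in the aPD-1 library (81 barcodes) and 550.9 CPM in the IgG library (89 barcodes). Of these barcodes 17 in the aPD-1 library (21.0%) and 22 in the IgG library (24.7%) were above the members' cutoff, and none of them was used. Intervals and floors cover counting error only.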

How the results depend on the processing

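No paired analysis was possible because there was 1 library per treatment. The share of members kept its sign and size under all 9 alternatives. Counts of genes moved by more than 1.5 times under the settings that follow, most of which were not run on the share. With the other G2 and mitosis genes in the score, 125 genes were higher and 1 was lower in members (77 of the 81 and 0 of the 4 were shared), and 522 of the 833 members (62.7%) were kept. With every cell weighted equally 7 were lower. With genes of at least 50 CPM, 16 were higher and 0 lower, and between libraries 0 were higher and 3 lower in aPD-1 members. With genes of at least 3 UMIs, 20 were lower in members, and between libraries 19 were higher and 111 lower. With ratios centred on the median gene, 7 were lower in members and 7 higher in aPD-1 members. With CPM outside ribosomal and mitochondrial genes, 14 were lower in members, and 8 were higher and 30 lower in aPD-1 members. Hist1h1b reversed, to 1.02 on the log2 scale, with the other G2 and mitosis genes in the score. The filters on genes change how many are tested, and for the rest the cause was not tested. Of the other values, 58 counts and shares stayed within their limits, and 424 values of single genes and 144 list medians moved beyond theirs. Thinning to 5000 UMIs before scoring left ties at the cutoff and 1025 cells as members. Taking the top 15% within each library fixes the share, so it has no value there. Counts of few UMIs limit the ratios of genes near 10 CPM.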

Other observations

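Beyond the lists, 26 of the 81 genes higher in members belonged to none of them, and the 3 given here were named after their values were seen. Terf1, a protein of telomeres, had 53.7 against 18.5 CPM in the aPD-1 library and 63.2 against 24.1 CPM in the IgG library. Rangap1, which drives the Ran cycle of nuclear transport and spindle assembly, had 126 against 53.9 CPM in the aPD-1 library and 121 against 50.3 CPM in the IgG library. Dbf4, the activator of the replication kinase Cdc7, had 90.9 against 38.3 CPM in the aPD-1 library and 80.3 against 30.6 CPM in the IgG library.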
